A study of Mus musculus with 12 samples.

Results

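Cholesterol is made from acetyl-CoA by a long chain of enzymes, and the genes of these enzymes are switched on together by the transcription factor SREBP2, the product of Srebf2. When membranes hold enough sterol, Insig proteins keep the escort protein Scap, and with it SREBP2, in the endoplasmic reticulum. When sterol runs low, Scap carries SREBP2 to the Golgi, where it is cut and released to the nucleus. The liver is a main site of this synthesis, and its SREBP2 targets are known to follow feeding and the time of day. A set of 27 such genes was described here in mouse liver: enzymes from the first steps to cholesterol, SREBP2 with its regulators, and carriers of sterol between membranes. They were chosen by name, with earlier results of the same arrays in view.

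The RNA of 12 livers, each from 1 male C57BL/6 mouse, was hybridised to 12 Affymetrix arrays. Mice of the control group (6 mice) were given no antibiotic, and mice of the penicillin group (6 mice) were given low-dose penicillin in drinking water after weaning. Livers of both groups were taken after 7 weeks, and the labels give neither the hour of collection, the age, the cage nor the dose. Array values are log2 intensities throughout, so that a difference of 1 is a doubling, and no gene's level can be set against that of another. A gene was represented by its brightest probeset with a mean of at least 4.73, the median over probesets, which left 11899 genes.

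Of the 27 genes, 26 had a probeset named for them, and 25 passed the filter. No probeset was named for Acat2, a thiolase of the first step, in the annotation used. Npc1l1, a sterol uptake protein best known from the intestine, lay below the filter at a mean of 3.94. Of the 25 measured, 18 encode enzymes. Hepatocyte markers stood at high levels, with Alb (albumin) at 14.93 to 15.02 in every array. In whole liver, fewer cells of a type and less RNA per cell cannot be told apart.

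SREBP2 binds sterol regulatory elements in promoters, and the factors NF-Y and Sp1, which bind CCAAT and GC boxes, are known to assist it. RefSeq windows of build GRCm38.p6 were given for 22 of the 27 genes, and the 250 bases before the start of transcription were searched on both strands. The CCAAT box, searched as ATTGG and its complement, was present for 20 of the 22, against 37.5% of the 27025 genes with a window and 39.6% of the 9605 that were also tested on the arrays. GGGCGG was present for 19 of the 22, against 35.4% and 62.2%. A core of the sterol element, TCACNCCAC, was present for 1 of the 22, Hmgcs1, against 1.22% and 1.34%, and the shorter CACCCCAC, which overlaps it, for Hmgcs1 and Acat2, against 2.98% and 3.49%. These are matches of letters and were not tested for binding. The following 4 stretches show an enzyme gene that holds all of these motifs, a second enzyme gene, and both Insig genes, whose levels are set side by side further on. Capitals mark matches to these motifs on either strand. A gene with several windows was counted when any of them held the motif. For Insig2 the window shown holds CCAAT matches and no GGGCGG, while its other windows hold GGGCGG matches and no CCAAT.
Hmgcs1, chr13:119690101-119690350, plus strand: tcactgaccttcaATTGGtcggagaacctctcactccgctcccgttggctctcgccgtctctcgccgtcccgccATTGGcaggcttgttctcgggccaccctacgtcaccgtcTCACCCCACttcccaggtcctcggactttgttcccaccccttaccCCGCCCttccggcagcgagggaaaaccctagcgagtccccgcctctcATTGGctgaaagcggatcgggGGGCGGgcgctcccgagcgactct
Idi1, chr13:8885356-8885605, plus strand: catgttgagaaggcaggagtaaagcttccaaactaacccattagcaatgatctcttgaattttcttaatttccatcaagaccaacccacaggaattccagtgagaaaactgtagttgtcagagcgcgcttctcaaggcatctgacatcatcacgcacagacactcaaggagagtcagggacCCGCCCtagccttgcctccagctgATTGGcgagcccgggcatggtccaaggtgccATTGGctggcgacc
Insig1, chr5:28071162-28071411, plus strand: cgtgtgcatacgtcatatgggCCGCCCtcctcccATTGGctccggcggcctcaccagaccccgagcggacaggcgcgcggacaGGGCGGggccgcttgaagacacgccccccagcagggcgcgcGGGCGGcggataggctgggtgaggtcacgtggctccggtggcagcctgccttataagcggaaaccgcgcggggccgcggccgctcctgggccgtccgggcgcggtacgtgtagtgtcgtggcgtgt
Insig2, chr1:121332590-121332839, minus strand, the farthest upstream of its 3 windows: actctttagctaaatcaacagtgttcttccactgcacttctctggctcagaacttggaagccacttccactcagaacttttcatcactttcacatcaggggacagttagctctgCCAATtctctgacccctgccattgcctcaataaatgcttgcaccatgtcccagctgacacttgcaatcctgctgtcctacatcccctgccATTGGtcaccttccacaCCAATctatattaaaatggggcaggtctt

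The comparison of penicillin with control asked whether these genes differed after the treatment, and none passed. Of the 25 measured, 19 stood lower in penicillin livers and 6 higher, with a median difference of -0.062 on the log2 scale. Over all 11899 genes 47.2% stood lower, with a median of 0.0064. By limma with Benjamini-Hochberg adjustment over all genes, 0 of the 25 passed, as did 0% of all genes. At an unadjusted p under 0.05 there were 0 of the 25, against 7.98% of all genes (3.66% lower and 4.33% higher). For none of the 25 did the groups separate, while 0.151% of all genes had every penicillin array below every control and 0.261% every penicillin array above. The balance of lower members changed with the arrays used. Leaving out 1 array at a time left 14 to 22 lower. Without control 1, control 3 and control 5, 9 of 25 were lower, against 53.1% of all genes. The immediate early genes (rapid-response genes such as Fos) were high in those controls. Without the 4 arrays with the highest clock gene score (control 6, penicillin 1, penicillin 5, penicillin 6), 10 of 25 were lower, against 44.9% of all genes. With that score as a covariate over all 12 arrays, 18 of 25 were lower, with a median of -0.065, against 46.2% of all genes. The part of either in the balance was not tested. Without control 4 alone, 21 were lower, against 45.4% of all genes, and the median was -0.15. In that fit 4 had an unadjusted limma p under 0.05 (Idi1, Sqle, Cyp51 and Srebf2), against 8.87% of all genes. Without penicillin 2, 22 were lower, against 47.3% of all genes, and the median was -0.096. There 2 had such a p (Mvd and Sqle), against 6.84% of all genes, a share near that of the 25. In neither case did any pass adjusted over all genes.

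**Figure D1:**
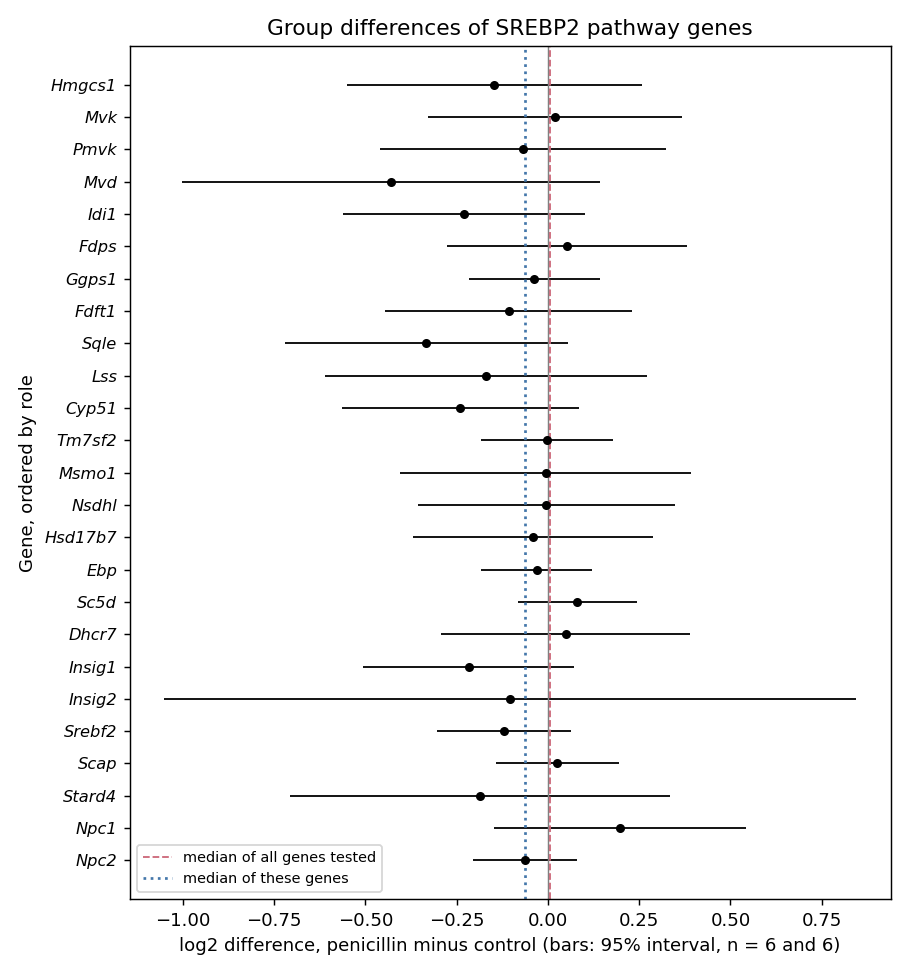
Log2 difference, penicillin minus control, of the 25 measured genes, with the 95% interval from limma (6 arrays per group). Every interval includes 0, and the median of these genes (-0.062, dotted) lies below that of all genes tested (0.0064, dashed).

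The first enzymes build mevalonate and turn it into isoprenoid units. Of 7 measured, 5 stood lower and 2 higher, with a median difference of -0.068. Hmgcs1, which condenses acetoacetyl-CoA with acetyl-CoA, ranged from 12.71 to 13.59 in controls (median 13.47) and from 12.57 to 13.72 with penicillin (median 13.18). The penicillin range enclosed that of the controls. Mvd, which makes isopentenyl diphosphate, ranged from 8.10 to 9.24 in controls (median 8.72) and from 7.36 to 9.12 with penicillin (median 8.26), a difference of -0.43 (SE 0.26; limma adjusted p = 0.735). This was the difference farthest from 0 among the 25. The lowest level was that of penicillin 1, and without it the difference was -0.25. Idi1, the isomerase that supplies dimethylallyl diphosphate, ranged from 11.68 to 12.65 in controls (median 12.49) and from 11.94 to 12.48 with penicillin (median 12.13). Control 4 was its lowest array and the other 5 controls lay at 12.37 or above, where only penicillin 2 of the treated mice reached. The difference was -0.23 (SE 0.15; limma adjusted p = 0.755). Both kinases of mevalonate, Mvk (0.020, SE 0.16) and Pmvk (-0.068, SE 0.18), and the farnesyl diphosphate synthase Fdps (0.052, SE 0.15) had differences smaller than their standard errors. So had Ggps1, which leads away from sterols to geranylgeranyl groups (-0.037, SE 0.083).

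The second group of enzymes joins farnesyl units to squalene and works the rings into cholesterol. Of 11 measured, 9 stood lower and 2 higher, with a median difference of -0.031. Sqle, the squalene epoxidase, which carries out the first oxygenation, ranged from 10.36 to 11.36 in controls (median 11.22) and from 10.30 to 11.15 with penicillin (median 10.77). Control 1, control 3, control 5 and control 6 lay above all penicillin arrays, while control 4 lay near the bottom and control 2 in between. The means were 11.06 ± 0.38 and 10.73 ± 0.31 (SD, n = 6), a difference of -0.33 (SE 0.18, 95% interval -0.72 to 0.056; limma adjusted p = 0.682), and the exact permutation test gave p = 0.126. It was the smallest unadjusted limma p of the 25 (0.0871). Cyp51, which removes a methyl group from lanosterol, ranged from 10.24 to 11.22 in controls (median 11.13) and from 10.56 to 10.98 with penicillin (median 10.73). Control 4 again lay below all other arrays. The other 5 controls were above all penicillin arrays by a narrow gap, with control 2 at 10.997 and penicillin 2 at 10.984. How many of all genes divide in this way once 1 array is set aside was not counted. The difference was -0.24 (SE 0.15; limma adjusted p = 0.735). Sc5d, a desaturase of a late step, ranged from 12.95 to 13.24 in controls (median 13.11) and from 12.99 to 13.41 with penicillin (median 13.18). The groups overlapped over most of their range, and the difference was 0.081 (SE 0.076; limma adjusted p = 0.846).

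The remaining enzymes of this second group had differences smaller than their standard errors. Fdft1, the squalene synthase, differed by -0.11 (SE 0.16) and Lss, which closes the rings, by -0.17 (SE 0.20). The enzymes of demethylation at the sterol ring, Msmo1, Nsdhl and Hsd17b7, differed by -0.0055 (SE 0.18), -0.0040 (SE 0.16) and -0.040 (SE 0.15). The reductase Tm7sf2 differed by -0.0020 (SE 0.083), the isomerase Ebp by -0.031 (SE 0.071) and Dhcr7, a reductase of the final steps, by 0.049 (SE 0.16). These intervals are wide against the values: that of Msmo1 ran from -0.40 to 0.39 and that of Ebp from -0.18 to 0.12.

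Of SREBP2 and its regulators, 3 of 4 stood lower and none passed. Srebf2 ranged from 7.499 to 7.91 in controls (median 7.80) and from 7.46 to 7.85 with penicillin (median 7.62), a difference of -0.12 (SE 0.085; limma adjusted p = 0.768). The groups overlapped, although control 1 and control 3 lay above all penicillin arrays. A second, dimmer probeset of Srebf2 gave -0.36 (SE 0.17). Insig1, itself a target of SREBP2, ranged from 11.40 to 11.88 in controls (median 11.74) and from 10.90 to 11.71 with penicillin (median 11.55). Penicillin 1 was the lowest array by a wide margin, and the difference was -0.22 (SE 0.13; limma adjusted p = 0.735), or -0.11 without that array. Insig2, which retains Scap as Insig1 does but is not a classic SREBP2 target, ranged from 9.51 to 11.68 in controls (median 11.28) and from 9.53 to 11.90 with penicillin (median 11.20). The groups overlapped over most of their range, and the difference was -0.10 (SE 0.44; limma adjusted p = 0.972). Scap differed by 0.026 (SE 0.078).

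Of the carriers, 2 of 3 stood lower and 1 higher. Stard4, a cytosolic sterol carrier induced by SREBP2, ranged from 10.23 to 11.53 in controls (median 10.55) and from 10.14 to 11.04 with penicillin (median 10.56). Control 1 and control 3 stood at 11.53 and 11.48, above all other arrays, and the difference of -0.19 (SE 0.24) became 0.20 without them and control 5. Npc1, which passes cholesterol out of lysosomes, ranged from 9.05 to 9.68 in controls (median 9.29) and from 9.06 to 9.86 with penicillin (median 9.60). Penicillin 1, penicillin 5 and penicillin 6 lay above all controls and the other 3 among them. The difference was 0.20 (SE 0.16; limma adjusted p = 0.812). Npc2, its soluble partner in the lysosome, differed by -0.062 (SE 0.066). Exact permutation tests of Sqle, Insig1, Insig2, Srebf2, Mvd, Npc1 and Stard4 gave adjusted p of 0.337 to 0.840 over these 7, where 0.00216 is the smallest p the design allows.

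Several members had more than 1 probeset, and these mostly ran the same way. Of 50 probesets past the filter 40 stood lower, and of 14 genes with more than 1, 13 had a single direction on all. The exception was Lss, with -0.17 on the brightest and 0.0050 and -0.0032 on the others. The 1 probeset with an unadjusted limma p under 0.05 was a dimmer one of Ggps1 (-0.34, SE 0.12). The other dim ones of that gene gave -0.11 and -0.066, and the brightest -0.037. Probesets of a gene share its RNA and are no replicates.

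The median SD within groups was 0.30 over the 25 genes, against 0.15 over all genes, and 18 of the 25 lay above the latter. Those below it were Npc2, Ebp, Sc5d, Scap, Ggps1, Tm7sf2 and Srebf2. Control 4 was the lowest of the 12 arrays for 13 of 25 genes and among the 3 lowest for 21, and it was the lowest for 12 of the 18 enzymes. In control 4, 2 of 25 genes stood above their 12-array mean, against 54.1% of all genes. Against the mean of the other 5 controls the median of its log2 differences was -0.665, with 23 of 25 genes below. Msmo1 was 2.11-fold, Lss 1.98-fold, Cyp51 1.85-fold and Sqle 1.80-fold higher in the other controls. The exceptions were Ggps1, higher in control 4 by 0.16, and Insig2, higher by 0.73. Penicillin 2 lay on the high side. It was the highest of 12 for 10 of 25 genes, all of them enzymes. In it 22 of 25 genes stood above their 12-array mean, against 51.8% of all genes. Lss was at 10.27 there, against 9.67 or less in the other penicillin arrays, and Dhcr7 at 11.29. Penicillin 1, penicillin 3 and penicillin 5 were on the low side, with 4, 3 and 6 of 25 genes above their means. Of all genes 43.3%, 46.5% and 52.9% stood above their means in these arrays. How many of all genes had their lowest level in control 4 or their highest in penicillin 2 was not counted.

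**Figure D2:**
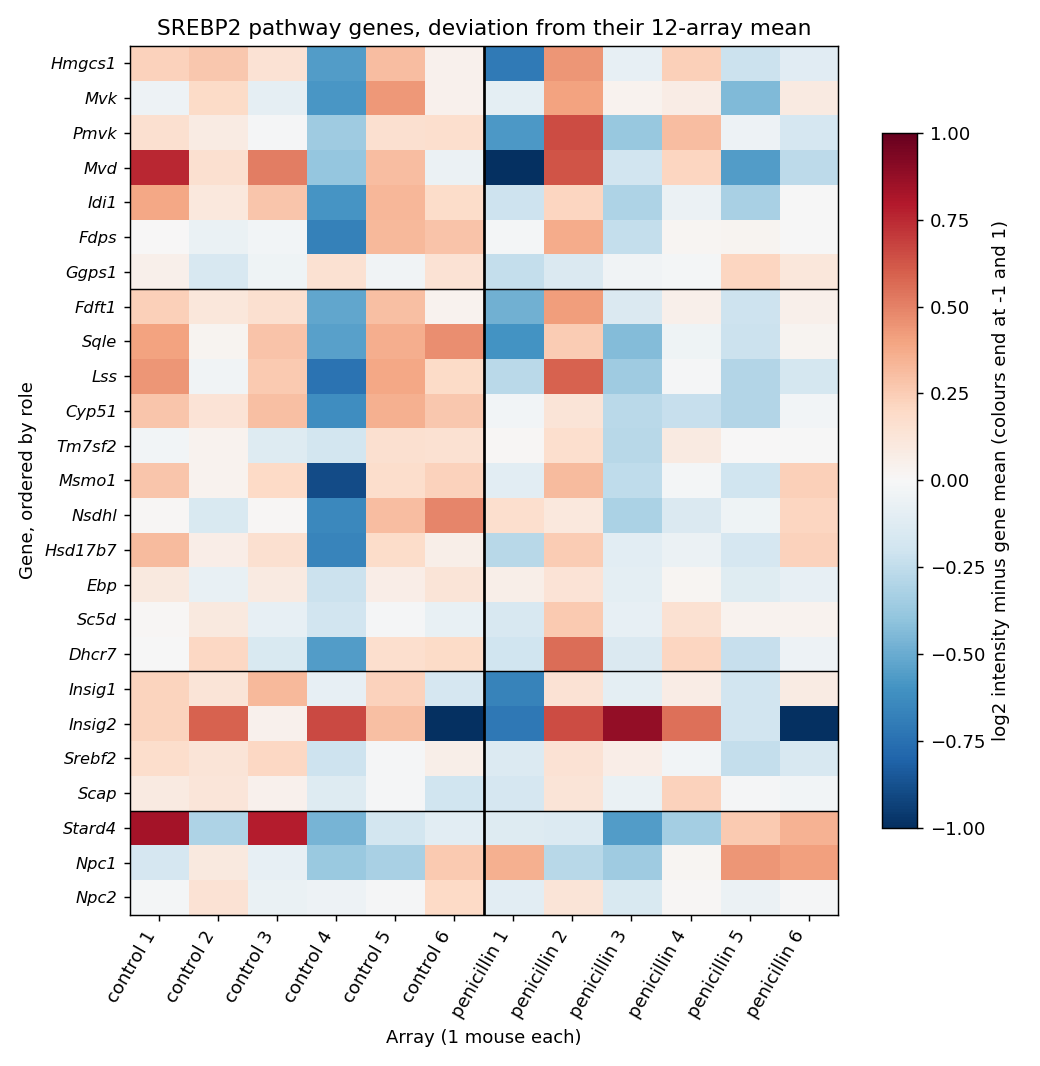
Log2 intensity of each of the 25 genes minus its mean over the 12 arrays (colour), with genes in rows by role and arrays in columns, controls left of the black line. Control 4 is low and penicillin 2 high across most enzyme rows, while Insig2 is high in control 4 and lowest in control 6 and penicillin 6.

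Over the arrays the median deviation of the 25 genes from their means was -0.46 in control 4 and 0.089 to 0.19 in the other controls. With penicillin it ran from -0.19 to 0.25, and penicillin 2, penicillin 4 and penicillin 6 lay at 0.25, 0.020 and -0.00089. Some other measures of control 4 lay at the edge of the controls. Its score of 14 immediate early genes (mean deviation) was -0.86, the lowest of the controls, and its clock score was -2.20, the lowest of all 12. This score is the mean deviation of 10 genes that are high when Dbp is high minus that of 5 genes that run opposite. Its hepatocyte markers, with 9 of 10 measured, stood at -0.031, beside -0.0041 to 0.081 in the other controls, and its 10 Kupffer cell and macrophage markers at -0.20, the lowest of the controls. Apart from the clock score, these values of control 4 lay within the range of the penicillin arrays. Its cholangiocyte, neutrophil and B and T cell markers were also the lowest of the controls. Its stellate cell and endothelial markers, at -0.026 and 0.13, lay among the other controls. The part of these measures in the low level of the pathway was not tested.

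Sqle and Idi1 varied together from animal to animal. Of 8 relations examined, that of Sqle with Idi1 was the closest, with Pearson's r = 0.914 and Spearman's rho = 0.874 over 12 arrays (permutation p = 1.6e-04 and 5.2e-04, adjusted over 8 to 0.00128 and 0.00416). Without control 4 and penicillin 5, the arrays farthest from the median of Idi1, r was 0.926. Within controls r was 0.949 (exact p = 0.05), and within penicillin arrays it was 0.829 (exact p = 0.0472). By rank the within-group relation was weaker, with rho = 0.657 in controls (exact p = 0.175) and 0.771 with penicillin (exact p = 0.103). For both enzymes control 4 was the lowest control and penicillin 2 the highest treated mouse. Sqle with Insig1 gave r = 0.689 and rho = 0.608 (permutation p = 0.0142 and 0.0391, adjusted 0.0568 and 0.133), and r = 0.499 without penicillin 1 and penicillin 5. It was 0.872 within penicillin arrays (exact p = 0.0167) and 0.349 within controls (exact p = 0.564), where control 6 had high Sqle and low Insig1. The difference between these within-group values was not tested. Sqle with Srebf2 gave r = 0.635 and rho = 0.573 (permutation p = 0.0334 and 0.0549, adjusted 0.0891 and 0.133), and r = 0.515 without control 4 and penicillin 5. Within groups r was 0.732 in controls and 0.335 with penicillin (exact p = 0.211 and 0.517).

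**Figure D3:**
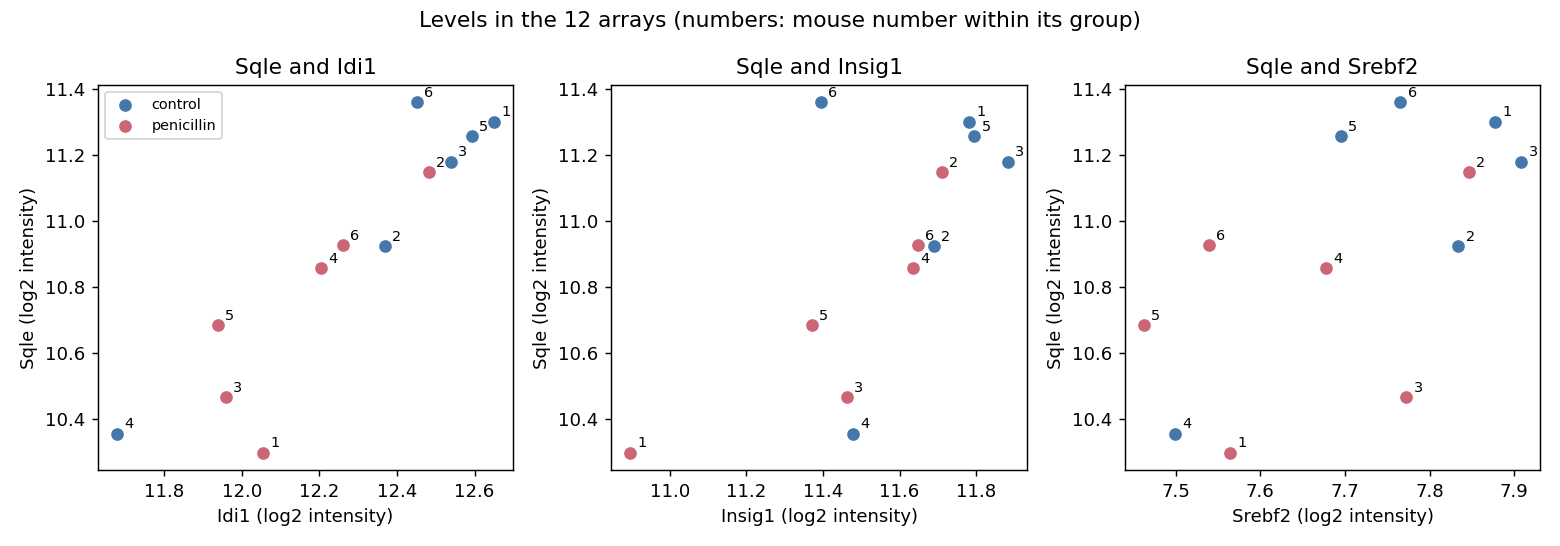
Log2 intensity of Sqle against that of Idi1, Insig1 and Srebf2, with a point per array numbered by mouse and coloured by group. The points lie along a line for Idi1 (r = 0.914), and less so for Insig1 (0.689) and Srebf2 (0.635).

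The other relations were looser. Sqle with Stard4 gave r = 0.497 and rho = 0.538 (permutation p = 0.0929 and 0.0749, adjusted 0.149 and 0.133), and 0.277 without control 1 and control 3. Sqle with Npc1 gave r = -0.074 and rho = -0.014 (permutation p = 0.809 and 0.972, adjusted 0.809 and 0.972), and Insig1 with Insig2 r = 0.348 and rho = 0.217 (permutation p = 0.298 and 0.502, adjusted 0.397 and 0.574). Levels of Fos formed separate clusters, so no pooled value is given. They were 11.29 in control 1, 11.33 in control 3, 11.85 in control 5, and between 5.84 and 7.46 in the other 9 arrays. Within the 9, Sqle with Fos gave r = 0.232 and rho = 0.433 (exact p = 0.547 and 0.250, adjusted 0.626 and 0.333). Without control 4 and control 6 r was 0.848 (exact p = 0.00794, adjusted 0.0317), so the relation depended on those arrays. Dbp, a clock output gene, stood at 11.96 to 12.05 in control 6, penicillin 1, penicillin 5 and penicillin 6. In the other 8 arrays Sqle with Dbp gave r = 0.667 and rho = 0.667 (exact p = 0.0629 and 0.0831, adjusted 0.126 and 0.133), and 0.499 without control 1 and control 3.

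The lowest levels of Insig2 and the highest of Npc1 lay in the arrays with the highest clock score. The clock score was 1.76 to 2.06 in control 6, penicillin 1, penicillin 5 and penicillin 6, and 0.68 or lower elsewhere. Insig2 had its 4 lowest levels in exactly these arrays, at 9.51 in control 6, 9.53 in penicillin 6, 10.30 in penicillin 1 and 10.83 in penicillin 5, and lay between 11.06 and 11.90 in the other 8. Npc1 had its 4 highest levels there, at 9.68, 9.83, 9.77 and 9.86 in the same order, and lay between 9.05 and 9.51 in the others. Its lowest levels were those of control 4 and penicillin 3, which were also low for most enzymes. Of the 4 mice with the highest clock score 3 belonged to the penicillin group, and the part of the clock genes in these levels was not tested. This comparison was not planned. The share of all genes that divide these 4 arrays from the other 8 was not counted, so no background stands beside it. With the clock score as a covariate the limma difference of Insig2 was 0.21 in place of -0.10, and that of Npc1 0.0996 in place of 0.20. Without the 4 arrays they were 0.33 and -0.036. Sqle did not follow this order: among the same 4 arrays it was at its highest of 12 in control 6 (11.36) and its lowest in penicillin 1 (10.30).

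**Figure D4:**
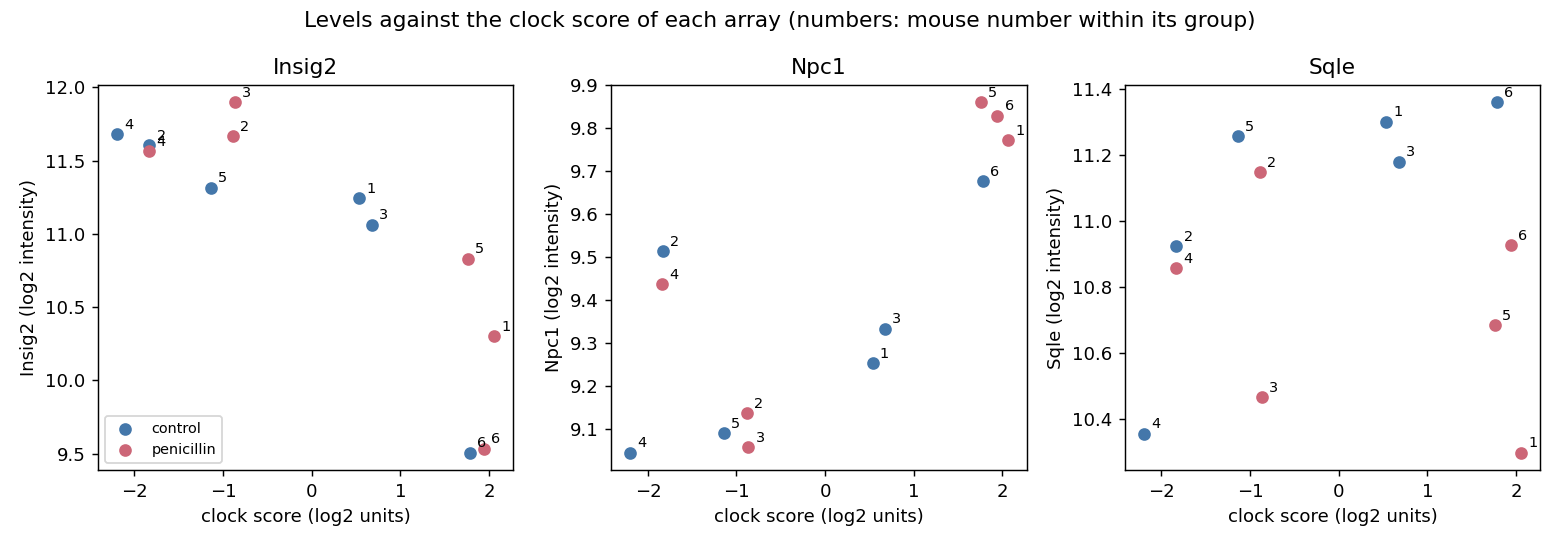
Log2 intensity of Insig2, Npc1 and Sqle against the clock score (mean deviation of 10 genes high with Dbp minus that of 5 opposite genes), with a point per array numbered by mouse and coloured by group. The 4 arrays at the right hold the lowest Insig2 (9.51 to 10.83) and the highest Npc1 (9.68 to 9.86), while Sqle spans its whole range there.

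Related genes that are no members were taken from lists of the pathway. Of 11 other genes of sterol synthesis and its cofactors, 9 stood higher and 2 lower (median difference 0.060), and 0 had an unadjusted limma p under 0.05. Of 15 genes of SREBP processing and turnover, 7 stood higher and 8 lower, with 3 at an unadjusted p under 0.05, against 7.98% of all genes, and 0 adjusted. These were Syvn1, a ubiquitin ligase of the endoplasmic reticulum (-0.77, SE 0.22; limma adjusted p = 0.479), Sec24d, a coat protein of vesicles that leave it (-0.30), and Srebf1, the relative of Srebf2 that drives fatty acid synthesis (0.51, SE 0.22; limma adjusted p = 0.593). Syvn1 was highest in control 1 and control 3 (10.85 and 10.87), and Srebf1 lowest in them (10.44 and 10.40). Among 14 genes of the non-sterol branches, 7 stood higher and 7 lower. There 3 had an unadjusted limma p under 0.05, against 7.98% of all genes, and 0 adjusted. Rabggta and Rabggtb, both subunits of the enzyme that attaches geranylgeranyl groups to Rab proteins, differed by 0.19 and -0.15. The third, Coq2 of ubiquinone synthesis, differed by 0.14.

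Genes of export, uptake and transport were likewise mixed. Of 11 measured genes of esterification, efflux and the sterol receptor LXR, 6 stood higher and 5 lower, and of 15 genes of intracellular transport 8 stood higher and 7 lower, with 0 adjusted calls. At an unadjusted limma p under 0.05, where 7.98% of all genes lay, 3 of the 11 and 2 of the 15 were found: the lipoprotein receptor Scarb1 (-0.29), the ubiquitin ligase Mylip (-0.25), the acyltransferase Lpcat3 (0.33), the sterol-binding protein Osbp (-0.20) and Tmem41b (-0.37). Of marker lists for other cells, all 4 measured of 9 cholangiocyte markers stood lower with penicillin (mean deviation 0.068 to 0.27 in controls and -0.53 to 0.077 with penicillin), and 8 of 10 Kupffer cell and macrophage markers (-0.20 to 0.39 and -0.28 to 0.16). Over all genes 47.2% stood lower. At an unadjusted limma p under 0.05, where 7.98% of all genes lay, were 2 of these 4 and 0 of these 10. The 3 measured of 6 neutrophil markers were lower, each at an unadjusted limma p under 0.05 (-0.23 to 1.66 and -1.11 to -0.35). Of hepatocyte markers 8 of 9 measured stood lower (-0.031 to 0.081 and -0.14 to 0.063), of stellate cell and fibroblast markers 6 of 7 and of endothelial markers 5 of 8. In these 3 lists 1, 0 and 1 had an unadjusted limma p under 0.05. Of the intestinal epithelium markers, Vil1, Cdx1 and Cdx2 lay below the filter. Lgals4 (0.19), Fabp2 (0.48) and Apoa4 (0.022) were measured and stood higher. Only Fabp2 had an unadjusted limma p under 0.05. Pdgfb had entered that list in place of Sis through a shared synonym and is not counted as a marker. Of 3 measured B and T cell markers 2 stood higher, as did the 1 measured adipocyte marker. The part of these cells in the differences above was not tested.

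**Figure D5:**
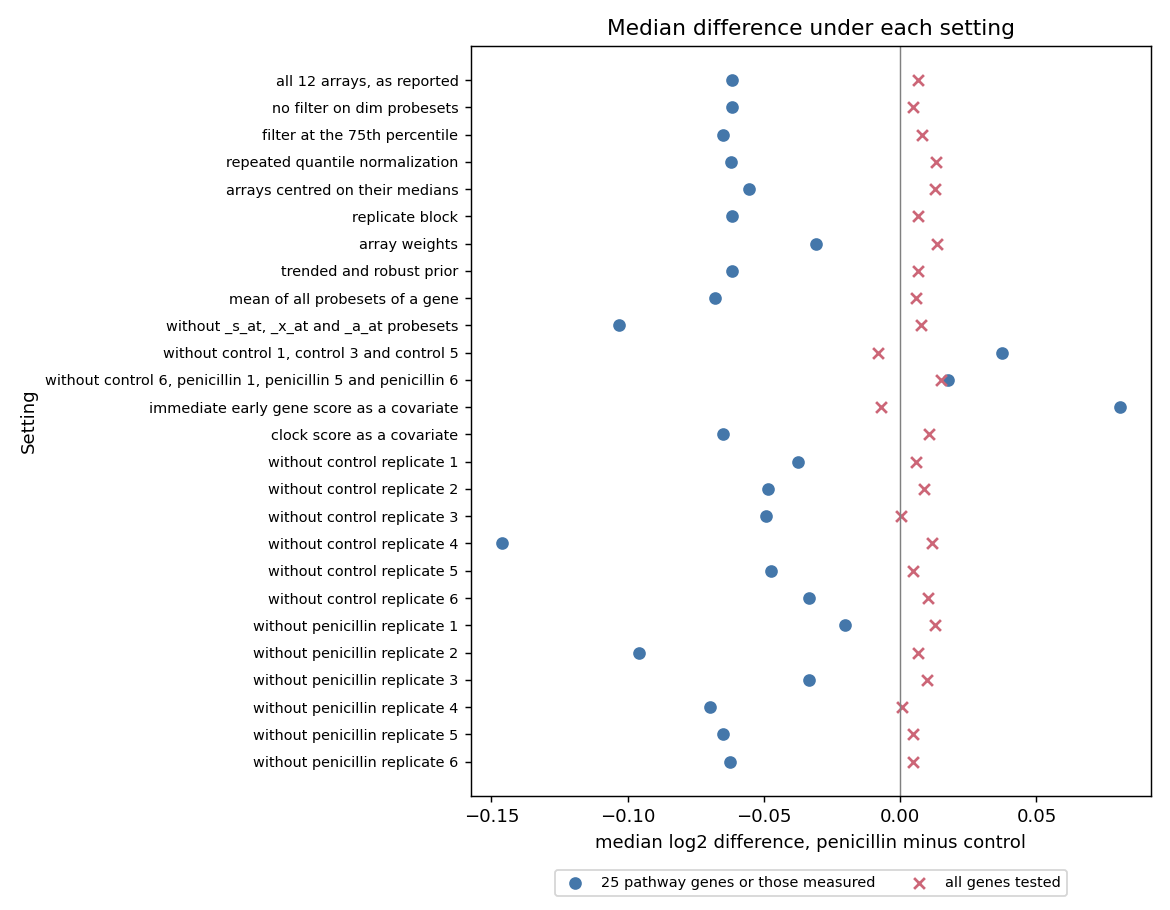
Median log2 difference, penicillin minus control, of the pathway genes (circles) and of all genes tested (crosses) under each setting, with settings in rows. The circles lie between -0.15 and -0.020 except under 3 settings, where they lie at 0.038, 0.018 and 0.081.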

How the data were processed

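The deposited values are probeset intensities that the authors made with RMA, per the submitters' processing notes. No software version is named in the labels. The method corrects background, gives all arrays 1 distribution and summarises the probes of a set, which would hide a shift of most genes. The intensities were linear, and log2 was taken. Of 45101 probesets, 45037 were not controls, and 34945 of these had 1 gene in the platform annotation, 932 several and 9160 none. Symbols were updated by gene identifier with RefSeq (GRCm38.p6). Penicillin minus control was tested with limma 3.58.1 in R 4.3.3, two-sided, with Benjamini-Hochberg adjustment at 0.05, and tested on simulated data. Permutation tests used scipy 1.17.1, exact over 924 assignments for group differences and with 100000 resamples for correlations over 10 or more arrays. The number of arrays limits the precision. The p-values of group differences weigh them against the variation between these mice. The mice were treated as independent, since the labels do not give the cage. Members, lists and settings were chosen with earlier results of these data known. Values by group were given for the 8 members with the smallest p and for Sqle, Insig1, Insig2, Srebf2, Npc1 and Stard4, and from other lists for up to 3 genes with the smallest p; values by group for Hmgcs1 and single levels of other genes were added after they were seen. The clusters of Fos and Dbp were set after the data were seen, and the comparison of Insig2 and Npc1 with the clock score was not planned. Alternatives were other filters, normalizations, variance models, probeset choices, covariates and omitted arrays.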

Additional observations from a re-analysis of the deposited data

Results flagged for a closer look

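Within the groups of 6, 10 of 52 sets of values held an array far from the others by Dixon's criterion at 0.625, where chance would give about 5%. The sets are not independent, since members vary together. Control 4 was low for Hmgcs1 (12.71, next control 13.32), Pmvk (9.74, next 10.08), Idi1 (11.68, next 12.37), Fdft1 (11.64, next 12.20), Cyp51 (10.24, next 10.997), Msmo1 (11.81, next 12.74) and Hsd17b7 (9.996, next 10.71). It was also low for the median deviation of the members, at -0.46 with the next control at 0.089. Control 6 was low for Insig2 (9.51, next 11.06). Penicillin 2 was high for Lss (10.27, next 9.67).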

How the results depend on the processing

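No member passed under any of the 25 settings tried (smallest limma adjusted p = 0.200, for Cyp51 without control 4). Leaving out 1 array at a time, 14 to 22 members stood lower, the median difference ran from -0.15 to -0.020, and 0 to 4 members had an unadjusted p under 0.05. Without control 1, control 3 and control 5 the number standing lower was 9 (median 0.038), against 53.1% of all genes. It was 10 without control 6, penicillin 1, penicillin 5 and penicillin 6 (median 0.018), against 44.9%. With the score of immediate early genes as a covariate it was 6 (median 0.081), against 52.7%. But it was 18 with the clock score as a covariate (median -0.065), against 46.2%. Without probesets whose names mark shared sequence, 1 member (Ggps1) had an unadjusted p under 0.05. The correlation of Sqle with Npc1 was 0.0032 without penicillin 5 and penicillin 6, and that of Sqle with Fos 0.85 without control 4 and control 6 (adjusted p = 0.0317). Mice of the groups shared numbers 1 to 6, and same-numbered deviations correlated at -0.26 to 0.39. The same number was the closest penicillin match for control 1, control 4 and control 6, and not for the other controls. The labels do not say that the numbers mark pairs, and the main fit did not use them. With the replicate block 19 members stood lower, the median was -0.062, 0 passed and 1214 genes had an unadjusted p under 0.05, against 950 without it.

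Of 322 member values under settings other than omission of 1 array, 277 kept their direction and 45 did not; the cause was not tested. Without control 1, control 3 and control 5 these were Hmgcs1 (0.011), Pmvk (0.0015), Fdft1 (0.070), Lss (0.11), Msmo1 (0.21), Nsdhl (0.10), Hsd17b7 (0.16), Ebp (0.038), Insig2 (0.035) and Stard4 (0.20). Without control 6, penicillin 1, penicillin 5 and penicillin 6 they were Hmgcs1 (0.12), Pmvk (0.19), Fdft1 (0.049), Lss (0.012), Tm7sf2 (0.022), Msmo1 (0.057), Hsd17b7 (0.018), Ebp (0.024), Insig2 (0.33), Srebf2 (0.0027) and Npc1 (-0.036). With the score of immediate early genes they were Hmgcs1 (0.081), Pmvk (0.057), Idi1 (0.056), Fdft1 (0.13), Lss (0.19), Cyp51 (0.012), Tm7sf2 (0.0037), Msmo1 (0.30), Nsdhl (0.13), Hsd17b7 (0.23), Ebp (0.061), Insig2 (0.024) and Stard4 (0.33). With the clock score Insig2 turned (0.21). With array weights Mvk (-0.0034), Ggps1 (0.0063), Tm7sf2 (0.019), Msmo1 (0.019) and Nsdhl (0.018) turned, after repeated quantile normalization Msmo1 (0.0096) and Nsdhl (0.0093), and after centring on medians Tm7sf2 (0.0043), Msmo1 (0.00075) and Nsdhl (0.0022). Leaving out single arrays gave ranges across 0 for Msmo1 (-0.18 to 0.049), Hsd17b7 (-0.18 to 0.019), Tm7sf2 (-0.039 to 0.053), Insig2 (-0.42 to 0.18), Mvk (-0.094 to 0.11), Fdps (-0.078 to 0.12), Dhcr7 (-0.059 to 0.10), Nsdhl (-0.13 to 0.093), Scap (-0.017 to 0.063), Pmvk (-0.21 to 0.040) and Ggps1 (-0.084 to 0.0076).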
